A study of Homo sapiens with 27 samples.

Results

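The 46 genes described here encode the acid hydrolases of the lysosome, its membrane and cholesterol-handling proteins, the subunits of the vacuolar H+-ATPase (V-ATPase), and 3 transcription factors that act on them. They are 46 of the 27115 genes with a value in each library. They were chosen by name as a pathway, with earlier results of these data known. RNA was measured on day 8 in 3 established diffuse large B-cell lymphoma (DLBCL) lines, Karpas422, OCI-Ly1 and HBL1, which the study assigned to the OXPHOS, germinal center B-cell like and activated B-cell like subtypes. Each line was transduced with a lentiviral pLKO.1 vector that carried a scrambled control hairpin (shCTRL) or 1 of 2 hairpins against SIRT3 (shSIRT3-1 and shSIRT3-2), and the vector of every group, controls included, also carried a puromycin resistance gene and YFP. SIRT3 is the main protein deacetylase of mitochondria. With 3 replicates per hairpin and line there were 27 libraries in 9 groups, with no untransduced group. The study describes the knockdown as replicated within each line but does not say whether replicates were separate infections or cultures, so p-values measure the spread between these libraries, part of which may be technical.

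Lysosomes are acidic organelles that degrade proteins, sugars, lipids and nucleic acids delivered by endocytosis and autophagy. The V-ATPase acidifies them: its cytosolic V1 sector hydrolyzes ATP and turns a rotor through which the membrane V0 sector moves protons. TFEB, TFE3 and MITF are related transcription factors that move into the nucleus when mTORC1 is inactive on the lysosomal surface, and they bind an E-box known as the CLEAR motif upstream of many lysosomal genes. In B cells lysosomal proteases also cut antigens and the invariant chain for presentation on MHC class II.

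Levels are given as CPM, the reads of a gene scaled by the library total that the authors used. CPM are not divided by gene length, so a level is compared here between groups and not between genes. Between 28694398 and 53405456 reads per library fell on listed genes (median 45669254). SIRT3 was 9.99, 9.14 and 10.2 CPM in the Karpas422 shCTRL libraries and 13.5, 14.2 and 16.4 CPM in HBL1, and in each line every knockdown library lay below every control. Over the 3 lines SIRT3 differed by -2.45 ± 0.17 (log2 fold change ± SE) with shSIRT3-1 and by -1.37 ± 0.17 with shSIRT3-2. The library HBL1 shSIRT3-1 replicate 3 stood apart from its group: its chi-square per gene against replicates 1 and 2 was 271 and 319, against 21.0 between those replicates, and 40.3% of the authors' total fell on listed genes there against 41.8% to 45.6% elsewhere. Of the B cell markers CD79A, CD79B, MS4A1 and PAX5, 0 stayed under 1 CPM, and their summed level was 1276 to 2057 CPM with shCTRL, 1472 to 2053 CPM with shSIRT3-1 and 886 to 1517 CPM with shSIRT3-2. The sum covers markers that moved apart: in HBL1, PAX5 was at 556 to 608 CPM with shCTRL, 136 to 356 CPM with shSIRT3-1 and 253 to 304 CPM with shSIRT3-2, while CD79A was at 261 to 389.8, 477 to 668 and 460.0 to 524 CPM. Of 8 markers of myeloid cells, which are rich in lysosomes, 7 stayed under 1 CPM in every library, and their sum was at most 1.26 CPM. In Karpas422 alone the fibroblast marker DCN was high, at 401, 423 and 416 CPM with shCTRL, 245, 292 and 144 CPM with shSIRT3-1 and 239, 279.9 and 104 CPM with shSIRT3-2, and the T cell marker CD3G was at 35.8 to 41.4 CPM in the Karpas422 controls. Of the other fibroblast markers, COL1A2 was in HBL1 at 12.6, 14.8 and 15.2 CPM with shCTRL, 4.92, 4.44 and 1.72 CPM with shSIRT3-1 and 55.2, 36.8 and 62 CPM with shSIRT3-2, lower with the first hairpin and higher with the second, and it was under 0.2 CPM in the other lines. The part of these markers in the results below was not tested. In bulk RNA a change in the mix of cells and a change in RNA per cell cannot be told apart.

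To show what the transcription factors are known to bind, the letters CACGTG (the E-box core) and TCACGTGA (its extended form, which contains the core) were searched on both strands in RefSeq promoters (GRCh38.p14), from 250 bases before the gene start to 50 after it. Both strings read the same on either strand. The promoter table held 34 of the 46 members. Of these, 9 (26.5%) held CACGTG and 5 (14.7%) held TCACGTGA, against 7.26% and 0.98% of all 35116 promoters, and against 9.43% and 1.7% of the 14281 promoters of genes tested here. The share of members counts 1 promoter per gene, while the other shares count every promoter, with more than 1 for some genes. The 9 genes were LAMP1, CD63, MCOLN1, CTSA, CTSD, GAA, NEU1, ATP6V0B and ATP6V0D1. Windows of 30 bases around a match were found once near the gene in hg19 for all 9. For 8 of them, all but CD63, the window of 1 match is printed 5′ to 3′ on the strand of the gene, with the match in capitals. These 8 genes are shown because they include the clearest rises, a fall and a pair of hairpins that disagreed.
CTSA, chr20:44519937-44519966, + strand: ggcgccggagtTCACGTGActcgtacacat
ATP6V0D1, chr16:67515102-67515131, - strand: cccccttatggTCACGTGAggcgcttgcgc
LAMP1, chr13:113951514-113951543, + strand: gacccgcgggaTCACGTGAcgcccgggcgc
MCOLN1, chr19:7587457-7587486, + strand: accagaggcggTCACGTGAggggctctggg
GAA, chr17:78075337-78075366, + strand: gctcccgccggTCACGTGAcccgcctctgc
ATP6V0B, chr1:44440563-44440592, + strand: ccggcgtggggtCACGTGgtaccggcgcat
NEU1, chr6:31830707-31830736, - strand: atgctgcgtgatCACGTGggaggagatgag
CTSD, chr11:1785187-1785216, - strand: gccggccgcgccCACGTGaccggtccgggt
These matches start at -25 bases (CTSA), -59 (ATP6V0D1), -28 (LAMP1), -41 (MCOLN1), -31 (GAA), -57 (ATP6V0B), -126 (NEU1) and -47 (CTSD) from the RefSeq gene start. LAMP1 held the core 6 times.

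The lysosomal genes as a group were higher after SIRT3 knockdown more often than they were lower. Their list was made with earlier results of these data known, so its counts are a description and not an independent test. A gene is said to have passed when its Benjamini-Hochberg adjusted p was under 0.05 in a limma model of log2(CPM + 0.1) with terms for line and hairpin, adjusted over the 13076 genes tested. MITF lay below the expression filter, so 45 members were tested. With shSIRT3-1, 17 of 45 rose, where 15.6% of all genes did, and 3 fell, where 22.3% of all genes did. With shSIRT3-2, 26 of 45 rose and 4 fell, against backgrounds of 16.3% and 21.7%. Both hairpins are compared with the same control libraries. In the same direction with both, 13 members rose (7.65% of all genes did) and 1 fell (10.5% of all genes). The median log2 fold change of the members was 0.14 with shSIRT3-1 and 0.41 with shSIRT3-2, beside -0.05 and -0.03 over all genes tested. The log2 values are on the log2(CPM + 0.1) scale, which understates the change of low genes. Most changes were modest. With a fold change above 1.5 required as well, 2 members rose and 2 fell with shSIRT3-1 (3.92% and 9.09% of all genes), and 12 rose and 1 fell with shSIRT3-2 (3.29% and 10.2%). The rises with shSIRT3-1 were then close to the share of all genes. CTSA alone then rose with both hairpins, and no member fell with both. The fall count with shSIRT3-1 rested on single libraries of OCI-Ly1: it was 5 in place of 3 without shCTRL replicate 3, shSIRT3-1 replicate 1 or shSIRT3-1 replicate 3.

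**Figure D1:**
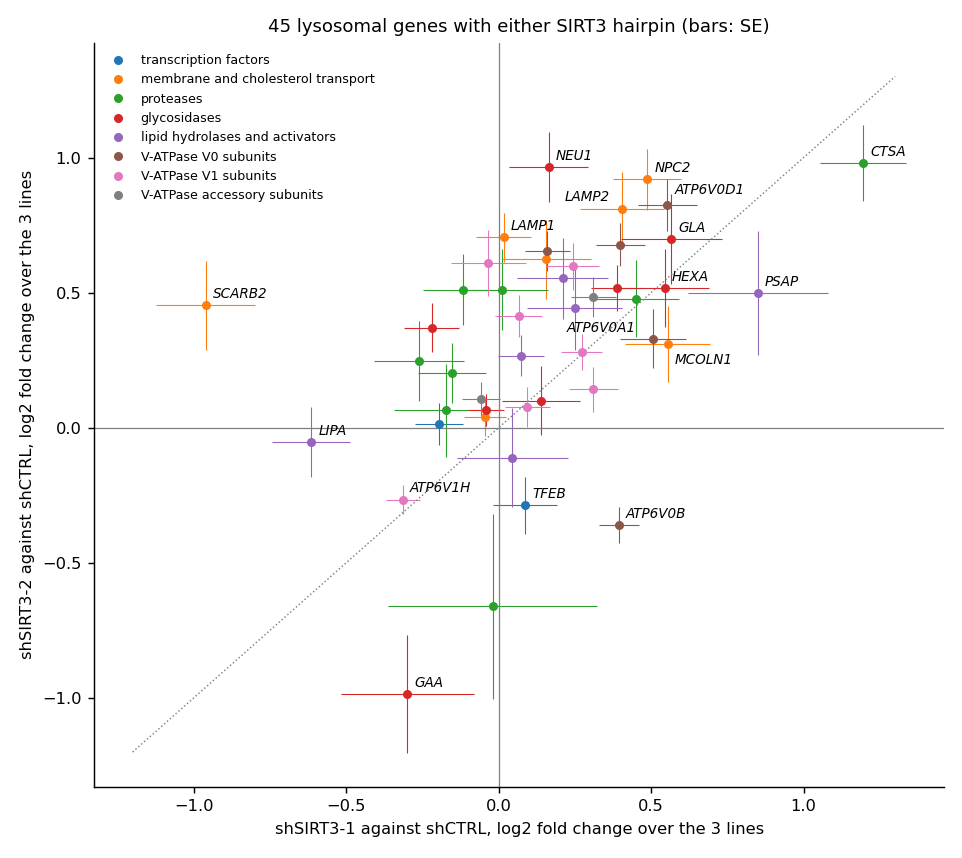
Log2 fold change against shCTRL over the 3 lines for the 45 lysosomal genes tested, with shSIRT3-1 on the x axis and shSIRT3-2 on the y axis. Points are colored by role, bars are SE, the dotted line marks equal change, and both axes use the same control libraries. CTSA lies at 1.19 and 0.98, SCARB2 at -0.96 and 0.45, and ATP6V0B at 0.39 and -0.36.

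Of the transcription factors, none rose with either hairpin over the 3 lines, and TFEB fell with shSIRT3-2. TFEB (hg19 chr6:41651716-41703997, - strand) was at 43.7, 45.9 and 37.2 CPM in the Karpas422 controls, 58.1, 60.5 and 51.2 CPM there with shSIRT3-1 and 43.9, 41.4 and 37.1 CPM with shSIRT3-2. In HBL1 it was at 123, 121 and 106 CPM with shCTRL, 84.6, 97.6 and 99.7 CPM with shSIRT3-1 and 67.8, 62 and 84.6 CPM with shSIRT3-2. In OCI-Ly1 it was at 15.6 to 25 CPM in all 9 libraries. TFEB thus lay above the controls in Karpas422 with shSIRT3-1 alone, below them in HBL1 with both hairpins, and among them in OCI-Ly1. Across the lines TFEB had a log2 fold change of 0.09 ± 0.11 (adjusted p = 0.548) with shSIRT3-1 and -0.29 ± 0.11 (adjusted p = 0.0342) with shSIRT3-2, and the response differed between lines (interaction adjusted p = 0.0269). The TFEB call with shSIRT3-2 was lost when 1 of 8 libraries was left out: Karpas422 shSIRT3-2 replicate 3, OCI-Ly1 shCTRL replicate 2 or shSIRT3-2 replicate 2, HBL1 shCTRL replicate 1, 2 or 3, or HBL1 shSIRT3-2 replicate 1 or 2 (adjusted p from 0.0531 to 0.079). TFE3 (hg19 chrX:48886237-48900936, - strand) was at 14.1 to 23.5 CPM in Karpas422, 18.6 to 23.3 CPM in OCI-Ly1 and 22.3 to 34.2 CPM in HBL1, where all 6 knockdown libraries lay below the controls. In Karpas422 TFE3 with shSIRT3-2 was at 19.4, 19.1 and 23.5 CPM, above the controls at 15.7, 16.7 and 17.8 CPM. The response of TFE3 differed between lines (interaction adjusted p = 0.0291). The log2 fold change of TFE3 over the lines was -0.20 ± 0.08 (adjusted p = 0.0514) with shSIRT3-1 and 0.01 ± 0.08 (adjusted p = 0.909) with shSIRT3-2. Without Karpas422 shCTRL replicate 1 or 2, Karpas422 shSIRT3-2 replicate 3, OCI-Ly1 shCTRL replicate 3, OCI-Ly1 shSIRT3-1 replicate 1 or 3, or OCI-Ly1 shSIRT3-2 replicate 2, TFE3 passed with shSIRT3-1 (adjusted p from 0.0266 to 0.0488). MITF (hg19 chr3:69788607-70017487, + strand) reached at most 0.0954 CPM and had no read in any HBL1 library. These are RNA levels, and the position of the proteins in the cell was not measured.

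Of the 7 membrane and cholesterol-transport proteins, 3 rose and 1 fell with shSIRT3-1, and 5 rose with shSIRT3-2, where 15.6% and 22.3% of all genes rose and fell with shSIRT3-1 and 16.3% rose with shSIRT3-2. NPC2 and LAMP2 rose with both. NPC2, which binds cholesterol in the lumen and passes it to NPC1 for export, rose with both hairpins. Its exons overlap those of ISCA2 on the other strand, which was at 5.01 to 13.6 CPM over the libraries. In Karpas422, NPC2 was at 11, 10.4 and 11.6 CPM with shCTRL, at 16.9, 14.5 and 16.4 CPM with shSIRT3-1 and at 24.6, 22.4 and 37 CPM with shSIRT3-2. In OCI-Ly1, NPC2 was at 10.6, 7.89 and 9.95 CPM with shCTRL, at 10.5, 15.3 and 10.6 CPM with shSIRT3-1 and at 13.1, 16.6 and 13.3 CPM with shSIRT3-2. In HBL1, NPC2 was at 27.8, 27.1 and 32.3 CPM with shCTRL, at 46.5, 38.1 and 47.3 CPM with shSIRT3-1 and at 55.2, 45.9 and 58 CPM with shSIRT3-2. All 9 libraries of each hairpin lay above the control mean of their line, and the groups overlapped only in OCI-Ly1 with shSIRT3-1. NPC2 (hg19 chr14:74942895-74960880, - strand) changed by 0.49 ± 0.11 (adjusted p = 0.00139) with shSIRT3-1 and by 0.92 ± 0.11 (adjusted p = 1.38e-06) with shSIRT3-2. NPC1, its membrane partner, had log2 fold changes of -0.04 ± 0.07 and 0.04 ± 0.07 and did not pass. LAMP1, an abundant glycoprotein that lines the lysosomal membrane, passed with shSIRT3-2 alone. In Karpas422, LAMP1 was at 63.5, 66.9 and 64.3 CPM with shCTRL, at 62.3, 59.8 and 68.3 CPM with shSIRT3-1 and at 113, 107 and 161 CPM with shSIRT3-2. In OCI-Ly1, LAMP1 was at 94.6, 98.5 and 77.4 CPM with shCTRL, at 92, 99.7 and 88.5 CPM with shSIRT3-1 and at 112, 138 and 111 CPM with shSIRT3-2. In HBL1, LAMP1 was at 126, 121 and 116 CPM with shCTRL, at 143, 115 and 114 CPM with shSIRT3-1 and at 206, 182 and 226 CPM with shSIRT3-2. With shSIRT3-2 every library lay above every control of its line, while the shSIRT3-1 libraries overlapped the controls in each line. LAMP1 (hg19 chr13:113951554-113977987, + strand) changed by 0.70 ± 0.09 (adjusted p = 2.25e-06) with shSIRT3-2, its value with shSIRT3-1 was 0.02 ± 0.09 (adjusted p = 0.903), and the difference between the hairpins was 0.69 ± 0.09 (adjusted p = 3.45e-06). LAMP2, which also serves as the receptor of chaperone-mediated autophagy, was at 44.4 to 49.7 CPM in the HBL1 controls, 52.7 to 95.5 CPM there with shSIRT3-1 and 96.5 to 148 CPM with shSIRT3-2. Over the lines LAMP2 changed by 0.41 ± 0.14 (adjusted p = 0.0217) and by 0.81 ± 0.14 (adjusted p = 6.68e-05) with the first and second hairpin, and the first of these calls was lost without OCI-Ly1 shSIRT3-1 replicate 2 (adjusted p = 0.0517). In Karpas422 its shSIRT3-1 libraries overlapped the controls. CD63, a tetraspanin of late endosomes, passed with shSIRT3-2 (0.62), and MCOLN1, the lysosomal calcium channel TRPML1, passed with shSIRT3-1 (0.55). MCOLN1 had 0.31 ± 0.14 (adjusted p = 0.0831) with shSIRT3-2, and it passed without OCI-Ly1 shCTRL replicate 1 (adjusted p = 0.0476) or HBL1 shSIRT3-1 replicate 3 (adjusted p = 0.0368). MCOLN1 shares exon sequence with PNPLA6 on the same strand, which was at 36.3 to 80.6 CPM over the libraries, so reads there may be split.

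SCARB2, also called LIMP-2, the receptor that carries β-glucocerebrosidase to the lysosome, moved in opposite directions with the 2 hairpins. In Karpas422, SCARB2 was at 6.72, 7.49 and 8.04 CPM with shCTRL, at 3.13, 3.43 and 3.43 CPM with shSIRT3-1 and at 7.98, 7.56 and 15 CPM with shSIRT3-2. In OCI-Ly1, SCARB2 was at 19.6, 25 and 19.8 CPM with shCTRL, at 16.8, 20.6 and 18.3 CPM with shSIRT3-1 and at 30.5, 42.9 and 31 CPM with shSIRT3-2. In HBL1, SCARB2 was at 7.37, 7.74 and 8.81 CPM with shCTRL, at 3.10, 3.05 and 1.98 CPM with shSIRT3-1 and at 9.97, 7.75 and 12 CPM with shSIRT3-2. With shSIRT3-1 all libraries lay below the controls in Karpas422 and HBL1 and overlapped them in OCI-Ly1, and with shSIRT3-2 all lay above the controls in OCI-Ly1 alone. SCARB2 (hg19 chr4:77079890-77155689, - strand) changed by -0.96 ± 0.16 (adjusted p = 5.98e-05) with shSIRT3-1 and by 0.45 ± 0.16 (adjusted p = 0.0303) with shSIRT3-2, and the hairpins differed by 1.41 ± 0.16 (adjusted p = 5.59e-07). The rise with shSIRT3-2 was not stable: it did not pass without Karpas422 shSIRT3-2 replicate 3, OCI-Ly1 shCTRL replicate 1 or 3, OCI-Ly1 shSIRT3-2 replicate 2, or HBL1 shSIRT3-2 replicate 1 or 3 (adjusted p from 0.0508 to 0.0694).

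Of the 8 proteases, 2 rose with shSIRT3-1 and 4 with shSIRT3-2, and none fell over the lines. Over all genes 15.6% and 22.3% rose and fell with shSIRT3-1, and 16.3% and 21.7% with shSIRT3-2. With shSIRT3-1, 3 of the 8 had positive values, and the median of the 8 was -0.07, beside -0.05 over all genes. With shSIRT3-2, 7 had positive values and the median was 0.36, beside -0.03. CTSA, cathepsin A, a carboxypeptidase that also holds the sialidase NEU1 and β-galactosidase in a protective complex, showed the largest mean change of the members. In Karpas422, CTSA was at 31.8, 28.2 and 30.3 CPM with shCTRL, at 54.6, 51.7 and 96.7 CPM with shSIRT3-1 and at 54.1, 53.3 and 75 CPM with shSIRT3-2. In OCI-Ly1, CTSA was at 19, 16.9 and 15.6 CPM with shCTRL, at 28.7, 41.2 and 27.3 CPM with shSIRT3-1 and at 25.7, 34.7 and 25.4 CPM with shSIRT3-2. In HBL1, CTSA was at 40.8, 38 and 43.5 CPM with shCTRL, at 117, 86.2 and 182 CPM with shSIRT3-1 and at 96.9, 78.7 and 113 CPM with shSIRT3-2. Every one of the 18 knockdown libraries lay above every control of its line, and the highest value of both hairpins came from replicate 3 in Karpas422 and HBL1 and from replicate 2 in OCI-Ly1. CTSA (hg19 chr20:44518783-44527588, + strand) changed by 1.19 ± 0.14 (adjusted p = 6.66e-07) with shSIRT3-1, a 2.29-fold level, and by 0.98 ± 0.14 (adjusted p = 9.67e-06) with shSIRT3-2, a 1.97-fold level. Without HBL1 shSIRT3-1 replicate 3 the value with shSIRT3-1 was 1.09. CTSA was the 1 member that passed with both hairpins in each line fitted alone. Its exons overlap those of PLTP and NEURL2 on the other strand, which were at 0.324 to 9.47 CPM and 0.0781 to 0.805 CPM over the libraries. The study does not say whether the libraries recorded strand.

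TPP1, a tripeptidyl peptidase that trims the ends of peptides, also rose with both hairpins over the lines, by 0.45 ± 0.14 (adjusted p = 0.0142) and 0.48 ± 0.14 (adjusted p = 0.0097). In HBL1 it was at 96.1, 90.8 and 129 CPM with shCTRL, 195, 138 and 324 CPM with shSIRT3-1 and 156, 135 and 177 CPM with shSIRT3-2, and all 6 knockdown libraries lay above the controls. Without HBL1 shSIRT3-1 replicate 3, the highest of them, TPP1 still passed with shSIRT3-1 (log2 fold change 0.32, adjusted p = 0.0185). Without replicate 1 or 2 of every group it did not pass with either hairpin (adjusted p from 0.0565 to 0.0787). In OCI-Ly1 the shSIRT3-1 libraries of TPP1 overlapped the controls. CTSC, which activates serine proteases of granules, and CTSD, the main aspartyl protease, passed with shSIRT3-2 alone, at 0.51 ± 0.15 and 0.51 ± 0.13. CTSS, the protease that cuts the invariant chain in B cells, had log2 fold changes of -0.15 ± 0.11 (adjusted p = 0.287) and 0.20 ± 0.11 (adjusted p = 0.148), and the second passed without HBL1 shSIRT3-1 replicate 3 (0.20, adjusted p = 0.0285). CTSB and CTSZ had values of -0.26 and -0.17 with shSIRT3-1 and 0.25 and 0.06 with shSIRT3-2, none of which passed.

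CTSH, an aminopeptidase cathepsin, differed between lines in the direction of its response. In Karpas422, CTSH was at 7.20, 7.15 and 4.0 CPM with shCTRL, at 4.95, 5.62 and 1.64 CPM with shSIRT3-1 and at 3.13, 3.27 and 1.70 CPM with shSIRT3-2. In OCI-Ly1, CTSH was at 57.1, 67.2 and 109 CPM with shCTRL, at 51.1, 33.8 and 54.6 CPM with shSIRT3-1 and at 27.5, 15.7 and 25.5 CPM with shSIRT3-2. In HBL1, CTSH was at 15.9, 13.2 and 13.9 CPM with shCTRL, at 25.3, 21.5 and 91.9 CPM with shSIRT3-1 and at 28.7, 24 and 29.1 CPM with shSIRT3-2. It lay below the controls in OCI-Ly1 with both hairpins and above them in HBL1 with both, and HBL1 shSIRT3-1 replicate 3 was more than 3-fold above the other libraries of its group. Fitted alone, the log2 fold change was -1.74 ± 0.29 (adjusted p = 0.0131) in OCI-Ly1 with shSIRT3-2 and 1.36 ± 0.46 (adjusted p = 0.0429) in HBL1 with shSIRT3-1, and the response differed between lines (interaction adjusted p = 0.0115). Without HBL1 shSIRT3-1 replicate 3 these HBL1 and interaction values were 0.70 (adjusted p = 0.00267) and adjusted p = 0.00345. Over the lines CTSH did not pass, with -0.02 ± 0.34 (adjusted p = 0.972) and -0.66 ± 0.34 (adjusted p = 0.13).

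**Figure D2:**
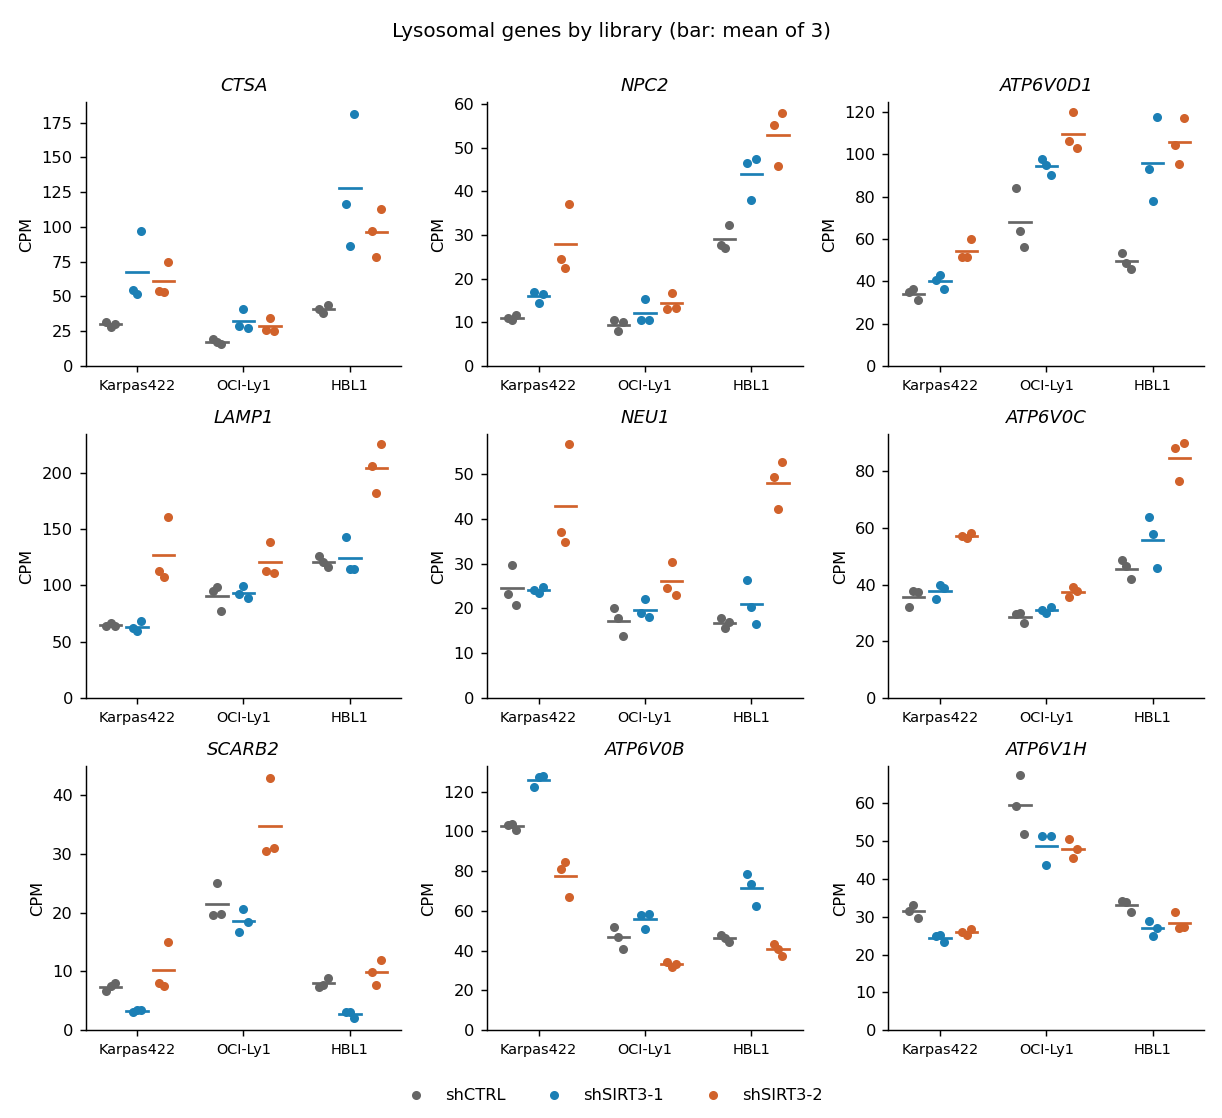
CPM of 9 lysosomal genes in each of the 27 libraries, by line on the x axis and by hairpin in color, with each axis starting at 0 and a bar at the mean of 3 replicates. CTSA lies above the controls in all 18 knockdown libraries, LAMP1, NEU1 and ATP6V0C are high with shSIRT3-2, SCARB2 and ATP6V0B differ in direction between the hairpins, and ATP6V1H lies below the controls in all 18.

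Of the 8 glycosidases, 3 rose with shSIRT3-1, 5 rose with shSIRT3-2 and 1 fell with shSIRT3-2. Over all genes 15.6% and 22.3% rose and fell with shSIRT3-1, and 16.3% and 21.7% with shSIRT3-2. HEXA, the alpha subunit of the hexosaminidase that degrades GM2 ganglioside, was at 45 to 48.1 CPM in HBL1 controls, 78 to 141 CPM with shSIRT3-1 and 76.3 to 97 CPM with shSIRT3-2. In OCI-Ly1 all 9 libraries were at 28.3 to 36.5 CPM and the groups overlapped. HEXA changed by 0.54 ± 0.14 (adjusted p = 0.0043) and 0.52 ± 0.14 (adjusted p = 0.0064) over the lines. GLA, α-galactosidase A, which is deficient in Fabry disease, changed by 0.57 ± 0.17 (adjusted p = 0.00912) and 0.70 ± 0.17 (adjusted p = 0.00189), with 12.8 to 14.1 CPM in Karpas422 controls and 18.9 to 27.6 CPM in the 6 knockdown libraries of that line. In OCI-Ly1 GLA overlapped the controls with both hairpins, and in HBL1 with shSIRT3-1. NAGLU, which degrades heparan sulfate, changed by 0.39 ± 0.08 (adjusted p = 7.79e-04) and 0.52 ± 0.08 (adjusted p = 4.31e-05), and no difference in its response between lines was detected (interaction adjusted p = 0.769). Its shSIRT3-1 libraries overlapped the controls in OCI-Ly1. GLA overlaps RPL36A, at 5.03 to 12.7 CPM, on the other strand, and HEXA overlaps its antisense transcript HEXA-AS1, at 0.0796 to 0.758 CPM.

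NEU1, the lysosomal sialidase that depends on CTSA, rose with shSIRT3-2 by 0.97 ± 0.13 (adjusted p = 4.53e-06), and its value with shSIRT3-1 was 0.16 ± 0.13 (adjusted p = 0.336). In Karpas422, NEU1 was at 23.3, 29.6 and 20.7 CPM with shCTRL, at 24, 23.3 and 24.7 CPM with shSIRT3-1 and at 37.2, 34.9 and 56.8 CPM with shSIRT3-2. In OCI-Ly1, NEU1 was at 20.1, 17.8 and 13.8 CPM with shCTRL, at 19, 22 and 18.1 CPM with shSIRT3-1 and at 24.7, 30.4 and 23 CPM with shSIRT3-2. In HBL1, NEU1 was at 17.8, 15.6 and 17.1 CPM with shCTRL, at 26.3, 20.3 and 16.5 CPM with shSIRT3-1 and at 49.4, 42.3 and 52.6 CPM with shSIRT3-2. All 9 libraries with shSIRT3-2 lay above every control of their line, while those with shSIRT3-1 overlapped the controls in each line. The difference between the hairpins was 0.80 ± 0.13 (adjusted p = 5.11e-05). GUSB, β-glucuronidase, passed with shSIRT3-2 (0.37 ± 0.09, adjusted p = 0.00238) and had a value of -0.22 ± 0.09 (adjusted p = 0.058) with shSIRT3-1. That value with shSIRT3-1 passed, as a fall, without OCI-Ly1 shCTRL replicate 3, OCI-Ly1 shSIRT3-1 replicate 1, 2 or 3, or HBL1 shCTRL replicate 3 (adjusted p from 0.0214 to 0.0439). GLB1, β-galactosidase, and MAN2B1, an α-mannosidase, did not pass with either hairpin, at -0.04 ± 0.06 and 0.07 ± 0.06 and at 0.14 ± 0.13 and 0.10 ± 0.13.

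GAA, the acid α-glucosidase that degrades glycogen, was the glycosidase that fell. In Karpas422, GAA was at 3.39, 5.46 and 3.88 CPM with shCTRL, at 1.83, 2.70 and 3.98 CPM with shSIRT3-1 and at 2.38, 2.11 and 2.75 CPM with shSIRT3-2. In OCI-Ly1, GAA was at 1.04, 2.34 and 2.18 CPM with shCTRL, at 0.807, 1.59 and 1.24 CPM with shSIRT3-1 and at 0.950, 0.774 and 1.02 CPM with shSIRT3-2. In HBL1, GAA was at 9.92, 12 and 20.7 CPM with shCTRL, at 12.4, 12.8 and 26.1 CPM with shSIRT3-1 and at 5.56, 5.27 and 5.35 CPM with shSIRT3-2. With shSIRT3-2 all 9 libraries lay below every control of their line, and with shSIRT3-1 the groups overlapped in each line. GAA changed by -0.99 ± 0.22 (adjusted p = 9.98e-04) with shSIRT3-2, and its value with shSIRT3-1 was -0.30 ± 0.22 (adjusted p = 0.29). Its promoter holds the extended letters printed above.

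Among the lipid hydrolases and their activators, PSAP and LIPA passed with shSIRT3-1 and ASAH1, PPT1 and GRN with shSIRT3-2. PSAP is the precursor of the saposins, which present sphingolipids to their hydrolases. In HBL1 it was at 114, 119 and 180.0 CPM with shCTRL, 361, 228 and 816 CPM with shSIRT3-1 and 164, 130.1 and 215 CPM with shSIRT3-2. In OCI-Ly1 it was at 305, 284 and 239 CPM, 378, 691 and 389.7 CPM and 370.0, 402 and 363 CPM in the same order. The replicate with the highest PSAP was the one with the highest CTSA in both lines with shSIRT3-1. PSAP changed by 0.85 ± 0.23 (adjusted p = 0.00486) with shSIRT3-1 and had 0.50 ± 0.23 (adjusted p = 0.0869) with shSIRT3-2. Without HBL1 shSIRT3-1 replicate 3, PSAP passed with both hairpins (0.64, adjusted p = 0.00454, and 0.50, adjusted p = 0.0167), and it passed with shSIRT3-2 also without HBL1 shSIRT3-2 replicate 2 (adjusted p = 0.0436). LIPA, the acid lipase that frees cholesterol from its esters, changed by -0.61 ± 0.13 (adjusted p = 5.33e-04) with shSIRT3-1, with 48.8 to 67.4 CPM in HBL1 controls and 18.5 to 33.8 CPM with shSIRT3-1. Its value with shSIRT3-2 was -0.05 ± 0.13 (adjusted p = 0.777), and LIPA shares exon sequence with the interferon-induced genes IFIT2 and IFIT3 on the other strand, which ranged from 0.124 to 27.1 CPM and from 0.0517 to 121.9 CPM.

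GRN, progranulin, a lysosomal and secreted glycoprotein, was at 122, 72.9 and 125 CPM in Karpas422 with shCTRL, 152, 167 and 155 CPM with shSIRT3-1 and 246, 227 and 256 CPM with shSIRT3-2. In that line all 6 knockdown libraries lay above the controls. In OCI-Ly1 GRN overlapped the controls with both hairpins, and in HBL1 with shSIRT3-1. Over the lines GRN had 0.21 ± 0.15 (adjusted p = 0.278) with shSIRT3-1 and changed by 0.55 ± 0.15 (adjusted p = 0.00523) with shSIRT3-2. ASAH1, acid ceramidase, changed by 0.44 ± 0.16 (adjusted p = 0.0266) with shSIRT3-2, a call lost without HBL1 shCTRL replicate 1, 2 or 3 or HBL1 shSIRT3-2 replicate 1 or 3 (adjusted p from 0.0566 to 0.0644). PPT1, a thioesterase that removes palmitate, changed by 0.27 ± 0.08 (adjusted p = 0.00716), and SMPD1, acid sphingomyelinase, did not pass at 0.05 ± 0.18 and -0.11 ± 0.18.

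More subunits of the proton pump rose than fell. Of the 14 V-ATPase members, 8 rose and 1 fell with shSIRT3-1, and 9 rose and 2 fell with shSIRT3-2, where 15.6% and 22.3% of all genes rose and fell with the first hairpin and 16.3% and 21.7% with the second. Their median log2 fold changes were 0.26 and 0.37, beside -0.05 and -0.03 over all genes. In OCI-Ly1 fitted alone, 0 of the 14 rose with shSIRT3-1, and 2 rose and 1 fell with shSIRT3-2. Of the genes tested there, 3.65% rose with shSIRT3-1, and 3.81% rose and 5.60% fell with shSIRT3-2. With a fold change above 1.5 required as well, 0 rose over the lines with shSIRT3-1 and 5 with shSIRT3-2 (3.92% and 3.29% of all genes). In the V0 sector, by adjusted p alone over the lines, 4 of 5 subunits rose with shSIRT3-1, and 4 rose and 1 fell with shSIRT3-2. ATP6V0D1, the subunit that couples the V0 ring to the central stalk, rose with both. In Karpas422, ATP6V0D1 was at 34.7, 36.4 and 31.2 CPM with shCTRL, at 40.5, 43 and 36.3 CPM with shSIRT3-1 and at 51.5, 51.4 and 60.1 CPM with shSIRT3-2. In OCI-Ly1, ATP6V0D1 was at 83.9, 63.6 and 56.3 CPM with shCTRL, at 97.6, 94.9 and 90.2 CPM with shSIRT3-1 and at 106, 120.2 and 103 CPM with shSIRT3-2. In HBL1, ATP6V0D1 was at 53.5, 48.8 and 45.9 CPM with shCTRL, at 93, 77.9 and 117 CPM with shSIRT3-1 and at 105, 95.5 and 117 CPM with shSIRT3-2. Every knockdown library lay above every control of its line, except that shSIRT3-1 overlapped the controls in Karpas422. ATP6V0D1 (hg19 chr16:67471917-67515084, - strand) changed by 0.55 ± 0.10 (adjusted p = 7.96e-05) and 0.82 ± 0.10 (adjusted p = 7.86e-07). ATP6V0E1, a small membrane subunit, changed by 0.40 ± 0.08 (adjusted p = 3.75e-04) and 0.68 ± 0.08 (adjusted p = 9.45e-07), with 28 to 33.2 CPM in Karpas422 controls and 44 to 68.1 CPM in its knockdown libraries. In HBL1 the shSIRT3-1 libraries of ATP6V0E1 overlapped the controls. ATP6V0A1, an isoform of the large membrane subunit a, changed by 0.51 ± 0.11 (adjusted p = 6.70e-04) and 0.33 ± 0.11 (adjusted p = 0.0186). In Karpas422 ATP6V0A1 overlapped the controls with both hairpins, with a mean of 67.9 CPM with shSIRT3-2 against 68.8 CPM with shCTRL. In OCI-Ly1 it overlapped them with shSIRT3-2. ATP6V0C, which forms most of the proton-carrying rotor, rose with shSIRT3-2 by 0.65 ± 0.07 (adjusted p = 4.91e-07), with all 9 libraries above the controls of their line, and had 0.16 ± 0.07 (adjusted p = 0.0868) with shSIRT3-1. The latter value passed under 3 other scalings and both edgeR tests (adjusted p from 0.0192 to 0.0441) and without HBL1 shSIRT3-1 replicate 3 (adjusted p = 0.0275).

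ATP6V0B, the other proteolipid of the rotor, moved in opposite directions with the hairpins. In Karpas422, ATP6V0B was at 103, 104 and 101 CPM with shCTRL, at 123, 127 and 128 CPM with shSIRT3-1 and at 81.3, 84.7 and 66.8 CPM with shSIRT3-2. In OCI-Ly1, ATP6V0B was at 52.1, 46.8 and 40.9 CPM with shCTRL, at 58, 50.9 and 58.3 CPM with shSIRT3-1 and at 34.4, 31.6 and 33.4 CPM with shSIRT3-2. In HBL1, ATP6V0B was at 47.9, 46.3 and 44.4 CPM with shCTRL, at 78.8, 73.4 and 62.7 CPM with shSIRT3-1 and at 43.4, 41 and 37.4 CPM with shSIRT3-2. With shSIRT3-2 all 9 libraries lay below every control of their line, and with shSIRT3-1 all lay above them except in OCI-Ly1, where the groups overlapped. ATP6V0B (hg19 chr1:44440159-44443967, + strand) changed by 0.39 ± 0.07 (adjusted p = 5.14e-05) with shSIRT3-1 and by -0.36 ± 0.07 (adjusted p = 1.58e-04) with shSIRT3-2, and the hairpins differed by -0.75 ± 0.07 (adjusted p = 7.09e-09). ATP6V0B and SCARB2 were the 2 members that passed in opposite directions. Of these rotor proteins, ATP6V0C rose and ATP6V0B fell with shSIRT3-2.

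Of the 7 V1 subunits, 3 rose and 1 fell with shSIRT3-1, and 4 rose and 1 fell with shSIRT3-2. Over all genes 15.6% and 22.3% rose and fell with the first hairpin, and 16.3% and 21.7% with the second. ATP6V1A, the catalytic subunit that hydrolyzes ATP, was at 56.8 to 88.3 CPM in HBL1 controls, 98.5 to 107 CPM with shSIRT3-1 and 121 to 133 CPM with shSIRT3-2. It changed by 0.24 ± 0.09 (adjusted p = 0.0289) and 0.60 ± 0.09 (adjusted p = 1.04e-05), and the first call was lost without HBL1 shCTRL replicate 2 or 3 or HBL1 shSIRT3-1 replicate 3 (adjusted p up to 0.0656). In OCI-Ly1 ATP6V1A overlapped the controls with both hairpins, and in Karpas422 with shSIRT3-1. ATP6V1F, a subunit of the central stalk, changed by 0.27 ± 0.07 (adjusted p = 0.00226) and 0.28 ± 0.07 (adjusted p = 0.00174). In OCI-Ly1 ATP6V1F overlapped the controls with both hairpins. ATP6V1B2, the partner of ATP6V1A in the catalytic ring, and ATP6V1C1, which helps to hold V1 on V0, passed with shSIRT3-2, at 0.41 ± 0.08 and 0.61 ± 0.12, while ATP6V1D passed with shSIRT3-1, at 0.31 ± 0.08. ATP6V1E1 did not pass, at 0.09 ± 0.07 and 0.08 ± 0.07. Of the accessory proteins that assemble the pump, ATP6AP1 changed by 0.31 ± 0.07 (adjusted p = 0.00164) and 0.48 ± 0.07 (adjusted p = 1.73e-05), with every knockdown library above every control of its line, and ATP6AP2, the prorenin receptor, had -0.06 ± 0.06 and 0.11 ± 0.06 and did not pass.

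ATP6V1H, a regulatory subunit of V1, was the 1 member that fell with both hairpins. In Karpas422, ATP6V1H was at 31.6, 33.2 and 29.5 CPM with shCTRL, at 24.8, 25.1 and 23.4 CPM with shSIRT3-1 and at 25.9, 25.2 and 26.9 CPM with shSIRT3-2. In OCI-Ly1, ATP6V1H was at 59.4, 67.6 and 52 CPM with shCTRL, at 51.5, 43.7 and 51.3 CPM with shSIRT3-1 and at 50.5, 45.5 and 48 CPM with shSIRT3-2. In HBL1, ATP6V1H was at 34.1, 33.8 and 31.2 CPM with shCTRL, at 28.9, 25 and 27 CPM with shSIRT3-1 and at 31.1, 27 and 27.2 CPM with shSIRT3-2. All 18 knockdown libraries lay below every control of their line. ATP6V1H changed by -0.31 ± 0.05 (adjusted p = 8.14e-05) and -0.27 ± 0.05 (adjusted p = 5.04e-04), and no difference in its response between lines was detected (interaction adjusted p = 0.9). Without replicate 2 of every group the value with shSIRT3-2 did not pass (-0.18, adjusted p = 0.0788).

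The hairpins differed in how far they moved these genes. In the contrast of shSIRT3-2 with shSIRT3-1, 20 of 45 members were higher with shSIRT3-2, where 16.6% of all genes were, and 3 were lower, where 15.1% were. The 3 lower genes were TFEB (-0.37 ± 0.11), GAA (-0.69 ± 0.22) and ATP6V0B (-0.75 ± 0.07). SCARB2, NEU1, LAMP1, ATP6V1C1 and CTSD had the widest positive differences, with CTSD at 0.63 ± 0.13 and ATP6V1C1 at 0.64 ± 0.12. For CTSA, HEXA, TPP1 and ATP6V1F no difference between the hairpins was detected, with values of -0.21 ± 0.14, -0.03 ± 0.14, 0.03 ± 0.14 and 0.01 ± 0.07. The hairpin with more members raised was the one that left more SIRT3 RNA: shSIRT3-1 libraries held 2.44 to 2.79, 1.06 to 2.23 and 2.0 to 2.39 CPM of SIRT3 in Karpas422, OCI-Ly1 and HBL1, and shSIRT3-2 libraries held 4.41 to 6.24, 4.06 to 6.17 and 2.84 to 3.82 CPM. Of the members tested, 11 passed with neither hairpin over the lines: TFE3, NPC1, CTSB, CTSH, CTSS, CTSZ, GLB1, MAN2B1, SMPD1, ATP6V1E1 and ATP6AP2.

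The number of lysosomal genes that passed differed between the lines. Fitted alone, 13 members rose and 7 fell in Karpas422 with shSIRT3-1 (11.6% and 22.2% of the genes tested there), and 23 rose and 2 fell with shSIRT3-2 (14.7% and 16.4%). In HBL1, 15 rose and 7 fell with shSIRT3-1 (14.9% and 25.1%), and 22 rose and 2 fell with shSIRT3-2 (13.5% and 21.3%). In OCI-Ly1, 1 rose and 0 fell with shSIRT3-1 (3.65% and 3.66%), and 6 rose and 2 fell with shSIRT3-2 (3.81% and 5.60%). Counts in OCI-Ly1 were low for all genes, so the members' count there is read against that background. Both hairpins raised 10 members and lowered 1 in Karpas422 (backgrounds 6.36% and 10%), raised 9 and lowered 0 in HBL1 (5.73% and 11.2%) and raised 1 and lowered 0 in OCI-Ly1 (0.937% and 0.919%). In Karpas422 the 10 were CD63, NPC2, CTSA, HEXA, GLA, NAGLU, GRN, ATP6V0E1, ATP6V1F and ATP6AP1, and the gene lowered was ATP6V1H. In HBL1 the 9 were NPC2, CTSA, HEXA, ASAH1, ATP6V0A1, ATP6V0D1, ATP6V1A, ATP6V1E1 and ATP6V1F. The gene raised in OCI-Ly1 was CTSA. The counts in a line depended on single libraries. In Karpas422 the rise count was 5 without shSIRT3-1 replicate 1 and 6 without shCTRL replicate 2, shSIRT3-1 replicate 2 or shSIRT3-1 replicate 3. The fall count there was 0 without shCTRL replicate 1 or 2 or shSIRT3-2 replicate 1 or 2, and 2 without shSIRT3-1 replicate 3. In OCI-Ly1 the rise count was 8 without shCTRL replicate 1 and 0 without any other single library. In HBL1 it was 15, with 1 fall, without shSIRT3-1 replicate 3, and the counts of each hairpin were then 20 up and 7 down with shSIRT3-1 and 31 up and 3 down with shSIRT3-2.

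**Figure D3:**
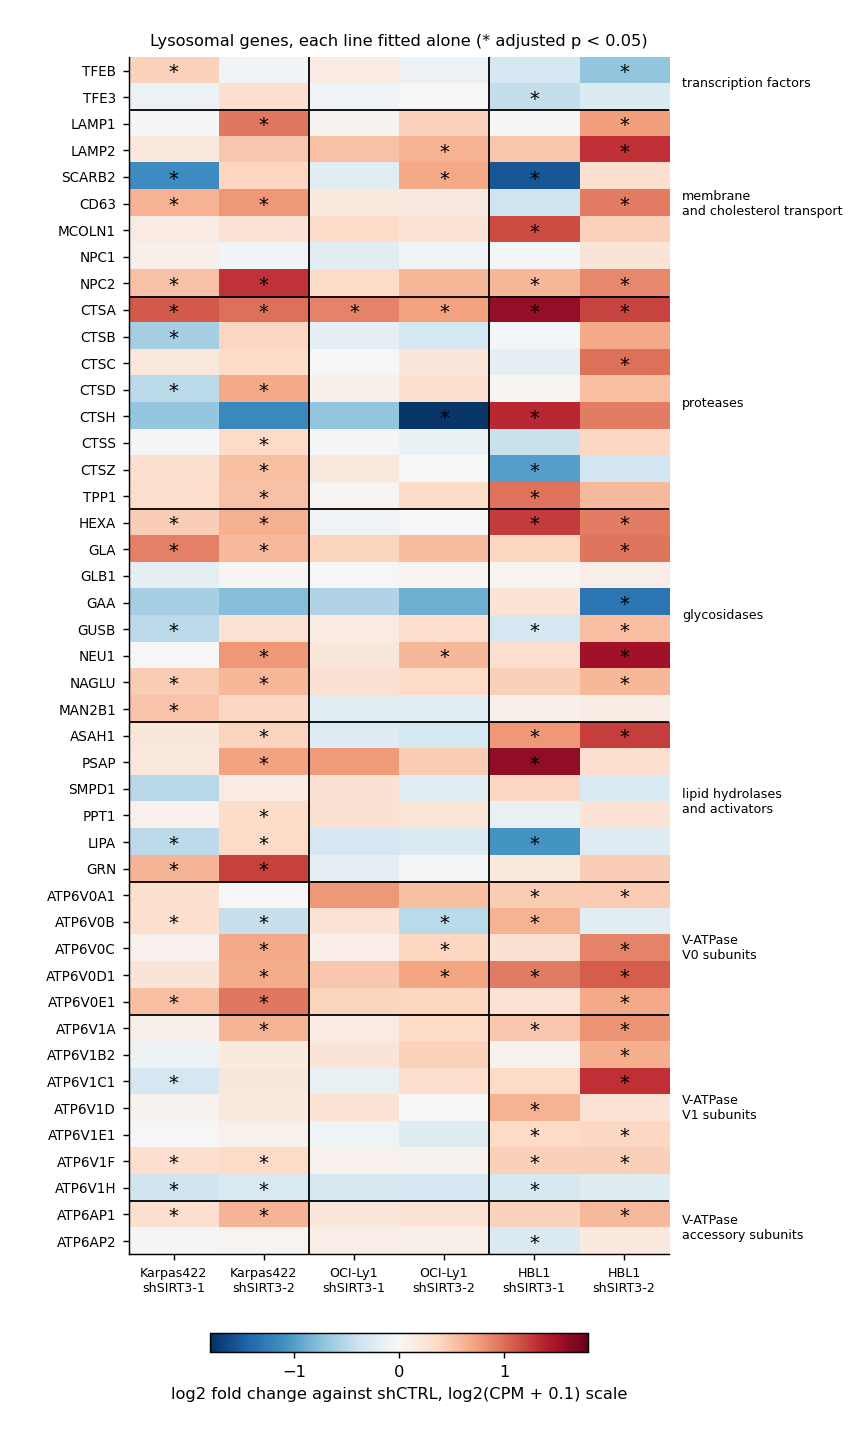
Log2 fold change against shCTRL of the 45 tested lysosomal genes (rows, grouped by role) in each line fitted alone with each hairpin (columns), red for higher and blue for lower, on the log2(CPM + 0.1) scale. Asterisks mark an adjusted p under 0.05, of which OCI-Ly1 holds 1 with shSIRT3-1 and 8 with shSIRT3-2, and CTSA is the row marked in all 6 columns.

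The interaction of line and hairpin was tested directly. The response of 25 of 45 members differed between lines, where 41.8% of all genes did. CD63 had the smallest interaction p of the members (adjusted p = 1.74e-04). In Karpas422, CD63 was at 61.7, 52.1 and 56.1 CPM with shCTRL, at 91.8, 90.8 and 80.7 CPM with shSIRT3-1 and at 99.7, 94.7 and 98.3 CPM with shSIRT3-2. In OCI-Ly1, CD63 was at 35, 25.4 and 28.7 CPM with shCTRL, at 36.4, 27.9 and 37.5 CPM with shSIRT3-1 and at 34.7, 30.9 and 33.5 CPM with shSIRT3-2. In HBL1, CD63 was at 43.8, 44.9 and 45.4 CPM with shCTRL, at 41.3, 39.1 and 26.3 CPM with shSIRT3-1 and at 89.7, 75.5 and 89.7 CPM with shSIRT3-2. With shSIRT3-1 CD63 lay above the controls in Karpas422 and below them in HBL1, and with shSIRT3-2 it lay above them in both. Fitted alone, its log2 fold change with shSIRT3-1 was 0.63 ± 0.09 (adjusted p = 9.99e-04) in Karpas422 and -0.36 ± 0.16 (adjusted p = 0.112) in HBL1, where it was -0.15 (adjusted p = 0.204) without replicate 3 (interaction adjusted p = 1.52e-04). ASAH1 was at 32.5 to 36.2 CPM in HBL1 controls and 41.6 to 93 CPM in the HBL1 knockdown libraries, and in OCI-Ly1 at 14.7 to 20.5 CPM and 12.6 to 16.5 CPM (interaction adjusted p = 6.64e-04). ATP6V1C1 changed in HBL1 with shSIRT3-2 by 1.31 ± 0.17, against 0.20 ± 0.08 in Karpas422 (interaction adjusted p = 9.14e-04). HEXA changed in HBL1 by 1.25 ± 0.20 and 0.92 ± 0.20 and had -0.06 ± 0.11 and -0.01 ± 0.11 in OCI-Ly1 (interaction adjusted p = 0.002). GUSB changed by -0.48 ± 0.11 with shSIRT3-1 in Karpas422 and by 0.55 ± 0.10 with shSIRT3-2 in HBL1 (interaction adjusted p = 0.00349). The directions were alike in these lines: all GUSB libraries lay below the controls with shSIRT3-1 and above them with shSIRT3-2. In OCI-Ly1 GUSB was at 41.6 to 55.4 CPM with shCTRL and overlapped at 51.2 to 56.0 CPM with shSIRT3-1. With shSIRT3-2 it lay above the controls there too.

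**Figure D4:**
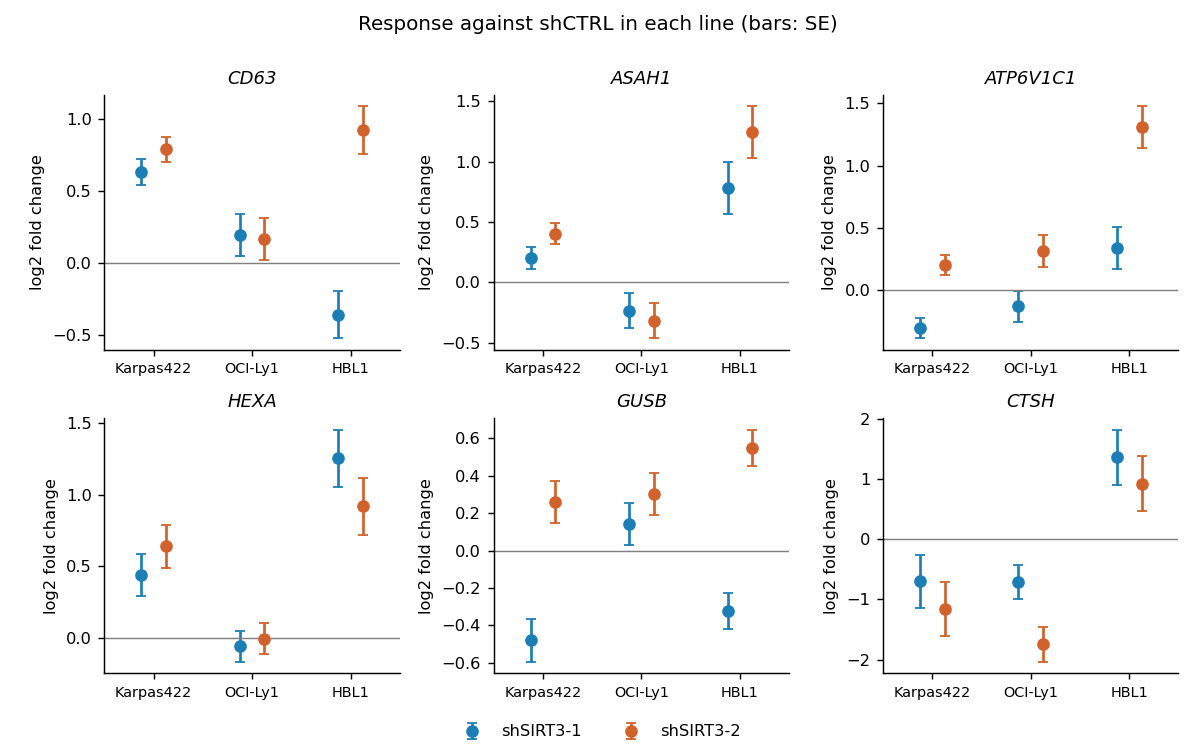
Log2 fold change against shCTRL of 6 lysosomal genes in each line fitted alone, with shSIRT3-1 in blue and shSIRT3-2 in orange, and bars for SE. CD63 with shSIRT3-1 is at 0.63 in Karpas422 and -0.36 in HBL1, and CTSH is negative in OCI-Ly1 and positive in HBL1.

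The lines differed in these genes also without SIRT3 knockdown. Among the control libraries, 32 of 45 members differed between HBL1 and Karpas422, where 67.8% of all genes did, 37 between HBL1 and OCI-Ly1 (67.3%), and 36 between Karpas422 and OCI-Ly1 (63.6%). CTSH had the widest range of means, 77.7 ± 27.4 CPM in OCI-Ly1 (mean ± SD, n = 3), 14.3 ± 1.38 CPM in HBL1 and 6.12 ± 1.83 CPM in Karpas422. All neighbours in that order differed, with OCI-Ly1 over HBL1 at the reverse of -2.38 ± 0.27 (adjusted p = 1.78e-05) and HBL1 over Karpas422 at 1.26 ± 0.27 (adjusted p = 0.00171). GRN was at 374 ± 66 CPM in HBL1, 106 ± 29 CPM in Karpas422 and 41.2 ± 8.40 CPM in OCI-Ly1, and HBL1 differed from OCI-Ly1 by 3.18 ± 0.23 (adjusted p = 4.73e-07). GAA was at 14.2 ± 5.70 CPM, 4.24 ± 1.08 CPM and 1.85 ± 0.705 CPM in the same order, and TFEB at 116 ± 9.54 CPM, 42.3 ± 4.52 CPM and 19.4 ± 4.79 CPM. TFEB and GAA passed in all 3 contrasts, with HBL1 against OCI-Ly1 at 2.60 ± 0.16 and 2.88 ± 0.34. ATP6V0A1 was at 74 ± 1.83 CPM in HBL1 and 68.8 ± 12.5 CPM in Karpas422, which did not differ beyond their spread (adjusted p = 0.65), and at 14.9 ± 5.26 CPM in OCI-Ly1. No difference between any pair of lines was detected for NPC1 and ATP6V1E1, whose control libraries lay within 24.9 to 36.0 CPM and 32.3 to 41.0 CPM.

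**Figure D5:**
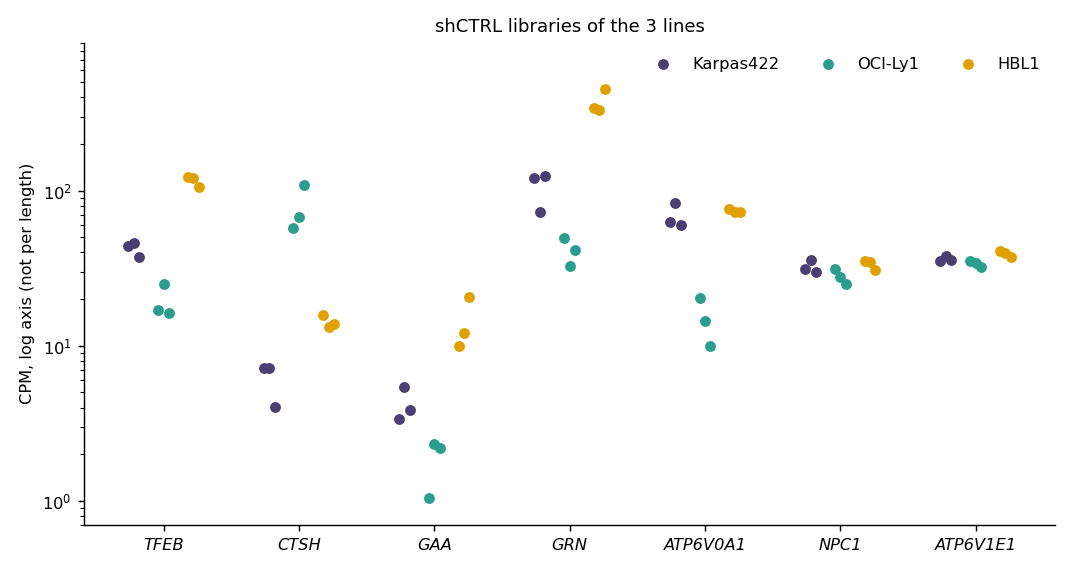
CPM in the 9 shCTRL libraries for the 5 lysosomal genes with the widest range between lines and for NPC1 and ATP6V1E1, with lines in color and a log axis. TFEB, GAA and GRN are highest in HBL1, CTSH is highest in OCI-Ly1, and ATP6V0A1 is lowest in OCI-Ly1.

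No test was run between members with and without the motif in their promoter. Of the 9 with CACGTG, 4 rose with shSIRT3-1 and 6 with shSIRT3-2, with median log2 fold changes of 0.16 and 0.62. Of the 24 tested members whose promoter window lacked it, 7 and 12 rose, with medians of 0.08 and 0.20. Over all genes tested, 15.6% and 16.3% rose with the first and second hairpin. LAMP1, MCOLN1, CTSA, GAA and ATP6V0D1, with the extended letters, had changes that ranged from -0.30 (GAA) to 1.19 (CTSA) with shSIRT3-1 and from -0.99 (GAA) to 0.98 (CTSA) with shSIRT3-2.

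A wider set of 114 other lysosomal genes, also listed with earlier results of these data known, gave the setting for these 46. Of them, 102 were tested, 25 rose and 17 fell with shSIRT3-1, and 35 rose and 13 fell with shSIRT3-2, with medians of 0.08 and 0.16. Over all genes, 15.6% rose and 22.3% fell with shSIRT3-1, and 16.3% rose and 21.7% fell with shSIRT3-2, with medians of -0.05 and -0.03. Of 33 other hydrolases and activators tested, 7 rose and 8 fell with shSIRT3-1, and 12 rose and 2 fell with shSIRT3-2. Of 26 other membrane proteins and transporters, 7 rose and 2 fell with shSIRT3-1, and 7 rose and 4 fell with shSIRT3-2. Of 7 other V-ATPase subunits, mostly tissue isoforms, 1 rose and 2 fell with each hairpin. Of 14 genes of mannose 6-phosphate tagging and sorting, which route hydrolases to the lysosome, 5 rose and 2 fell with shSIRT3-1, and 7 rose and 3 fell with shSIRT3-2. Of 22 genes by which the lysosome controls mTORC1 and TFEB, 5 rose and 3 fell with shSIRT3-1, and 8 rose and 2 fell with shSIRT3-2.

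Among those that passed with both hairpins, DNASE2 and AGA had larger mean changes than any member. DNASE2, the acid DNase of the lysosome, was at 67.5 to 68.6 CPM in HBL1 controls and 13.1 to 22.6 CPM in the HBL1 knockdown libraries, and it changed over the lines by -1.26 ± 0.18 (adjusted p = 8.44e-06) and -1.17 ± 0.18 (adjusted p = 2.59e-05). In OCI-Ly1 DNASE2 was at 17.7 to 29.3 CPM with shCTRL and 16.1 to 22.3 CPM after knockdown, so the groups overlapped there, and the response differed between lines (interaction adjusted p = 3.17e-05). AGA, which cleaves asparagine-linked sugars from glycoproteins, changed by -1.19 ± 0.18 (adjusted p = 2.18e-05) and -1.10 ± 0.18 (adjusted p = 5.94e-05), with 18.8 to 23.2 CPM in HBL1 controls and 5.33 to 7.86 CPM after knockdown. In OCI-Ly1 AGA was at 4.16 to 11.5 CPM with shCTRL and 3.89 to 5.87 CPM after knockdown, which overlapped (interaction adjusted p = 0.0203). ATP6V1E2, an isoform of the V1 E subunit, fell from a low level, by -0.98 ± 0.15 and -0.77 ± 0.15. IFI30, the thiol reductase GILT of antigen processing, changed by 0.80 ± 0.18 and 0.83 ± 0.18, with 72.6 to 90.5 CPM in HBL1 controls and 114 to 224 CPM after knockdown. In Karpas422 and OCI-Ly1 its knockdown libraries overlapped the controls with both hairpins. GGA2, an adaptor that sorts mannose 6-phosphate receptors, changed by 0.74 ± 0.13 and 0.72 ± 0.13. LAMTOR1, the membrane anchor of the Ragulator complex that brings mTORC1 to the lysosome, changed by 0.62 ± 0.09 (adjusted p = 5.33e-06) and 0.81 ± 0.09 (adjusted p = 2.34e-07), and every knockdown library lay above every control of its line. DNASE2, AGA and ATP6V1E2 fell, and IFI30, GGA2 and LAMTOR1 rose, with both hairpins over the lines.

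The Rag GTPases RRAGC and RRAGD, which recruit mTORC1 and TFEB to the lysosome as partners of RRAGA or RRAGB, are named because of their values. In Karpas422, RRAGD was at 0.122, 0.294 and 0.0928 CPM with shCTRL, at 0.204, 0.170 and 0.308 CPM with shSIRT3-1 and at 1.62, 0.742 and 3.34 CPM with shSIRT3-2. In OCI-Ly1, RRAGD was at 3.10, 6.42 and 4.43 CPM with shCTRL, at 3.60, 5.72 and 5.03 CPM with shSIRT3-1 and at 8.38, 12.7 and 11.6 CPM with shSIRT3-2. In HBL1, RRAGD was at 2.60, 3.08 and 3.96 CPM with shCTRL, at 7.11, 4.02 and 4.44 CPM with shSIRT3-1 and at 14.9, 9.98 and 17.2 CPM with shSIRT3-2. With shSIRT3-2 all 9 libraries lay above every control of their line, from a level in Karpas422 below 1 CPM. RRAGD changed by 2.02 ± 0.25 (adjusted p = 1.39e-06) with shSIRT3-2 and had 0.35 ± 0.25 (adjusted p = 0.274) with shSIRT3-1. In Karpas422, RRAGC was at 38.7, 44.7 and 29.9 CPM with shCTRL, at 44.9, 37.2 and 45.7 CPM with shSIRT3-1 and at 15.4, 14.9 and 11 CPM with shSIRT3-2. In OCI-Ly1, RRAGC was at 22.8, 25.7 and 18.9 CPM with shCTRL, at 22.2, 28.8 and 24.9 CPM with shSIRT3-1 and at 10.7, 8.63 and 9.43 CPM with shSIRT3-2. In HBL1, RRAGC was at 27.8, 30.1 and 27.9 CPM with shCTRL, at 29.9, 23.1 and 27.2 CPM with shSIRT3-1 and at 7.92, 7.46 and 7.21 CPM with shSIRT3-2. All 9 libraries with shSIRT3-2 lay below every control of their line, while the shSIRT3-1 libraries overlapped the controls in each line. RRAGC changed by -1.52 ± 0.10 (adjusted p = 1.62e-10) with shSIRT3-2, and its value with shSIRT3-1 was 0.09 ± 0.10 (adjusted p = 0.534).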

How the data were processed

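Total RNA from 27 libraries was prepared by the authors with a TruSeq RNA kit, sequenced as paired ends, aligned to hg19 with STAR and assigned to RefSeq genes with Rsubread. How reads in overlapping genes were handled is not given in the sources used here, and exons of 10 of the 46 members overlap another listed gene. FPKM is the name the authors gave to the deposited values. Within each library, however, 100% of values above 0 were whole multiples (within 0.1 read) of a step that gene length did not change, so the deposited values were treated as CPM and turned back into reads. The tests laid out for FPKM suit CPM too.

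Genes that reached 1 CPM in 3 or more libraries of a fit were kept and tested as log2(CPM + 0.1) with limma 3.58.1 in R 4.3.3 (empirical Bayes with a variance trend, two-sided, Benjamini-Hochberg over all genes tested), with terms for line and hairpin as in the study, with each line alone, with the line by hairpin interaction (F test), and between controls. The study called genes at a fold change above 1.5, which is given as an alternative. Counts recovered from the deposited values were tested with edgeR 4.0.16 as alternatives. Its quasi-likelihood test called 2391 genes higher and 2691 lower with shSIRT3-1, and 2291 and 2812 with shSIRT3-2. Other alternatives were pseudocounts of 1 and 0.01, no filter, 3 scalings, no variance trend, a replicate block, and leaving out each replicate number or library. The models were tested on simulated data. The members and the lists of other genes were chosen with earlier results of these data known. A further B cell marker is not reported here. A rule set fuller reporting for the 3 transcription factors and the 10 members with the largest mean change among those passing with both hairpins. It also covered the 2 with the largest mean change in each role and the 5 with the smallest interaction p. The rest were the 5 with the widest range between controls, 6 other lysosomal genes and SIRT3. For some of these genes CPM are given in only part of the lines, or not at all. NPC1, LAMP1, NEU1, LIPA, ATP6V0B, ATP6V0C, ATP6V1E1, ATP6V1H, RRAGC and RRAGD were given in more detail after their values were seen. Coordinates are those of GENCODE on hg19, and promoters are RefSeq's. Python 3.11.15 read the files.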

Additional observations from a re-analysis of the deposited data

Results flagged for a closer look

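By the interaction test of limma, the response to the hairpins differed between lines for 19 of the genes given in full. Of these, 14 were members. CD63, ASAH1, ATP6V1C1, HEXA and GUSB were picked for the smallest interaction p of the members. The count of 19 was thus partly set by selection on the same test. Without that selection, 25 of the 45 members tested differed, where 41.8% of all genes did. The 14 members given in full were CD63 (adjusted p = 1.74e-04), ASAH1 (6.64e-04), ATP6V1C1 (9.14e-04), HEXA (0.002), GUSB (0.00349), CTSH (0.0115), SCARB2 (0.0156), ATP6AP2 (0.0166), GRN (0.0202), PSAP (0.0246), TFEB (0.0269), ATP6V0E1 (0.0278), TFE3 (0.0291) and ATP6V0D1 (0.0479). The others were DNASE2 (3.17e-05), GGA2 (0.00118), SIRT3 (0.00291), ATP6V1E2 (0.0198) and AGA (0.0203). Of these, ATP6V0D1 had the same sign in each line and changed with shSIRT3-2 by 0.67 ± 0.10 in Karpas422 and 1.09 ± 0.15 in HBL1, and in OCI-Ly1 by 0.71 ± 0.14, and its interaction did not pass without HBL1 shSIRT3-1 replicate 3 (adjusted p = 0.0718). ATP6V0E1 changed with shSIRT3-2 by 0.96 ± 0.10 in Karpas422 and 0.68 ± 0.12 in HBL1, and had 0.39 ± 0.11 in OCI-Ly1. ATP6AP2 changed with shSIRT3-1 by -0.27 ± 0.08 in HBL1, where its libraries lay below the controls, and had -0.02 ± 0.09 in Karpas422. The hairpins disagreed in HBL1: with shSIRT3-2 its libraries, at 53.8, 49.2 and 52.8 CPM, lay above every control of that line. With 3 libraries a group, no single library was tested as an outlier.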

How the results depend on the processing

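No call reversed, and no member that passed over the lines changed sign under any scaling. The count higher with both hairpins in OCI-Ly1 (1) was 0 without a filter, 3 with quantile normalization, 2 with scaling by the sum over listed genes, 3 with the edgeR likelihood ratio test and 3 with the replicate block. In HBL1 (9) it was 15 with that edgeR test and 14 with the block. The block also gave 2 lower with both in Karpas422 and 1 in OCI-Ly1. The replicate numbers are not stated to mark a culture or day. Same-number libraries did deviate together, with a mean r of 0.32 over 27 pairs against -0.14 over 54 pairs of other numbers, and 22 of 27 libraries correlated best with their own number in both other groups of the line. Since 1 of the 27 pairs was not above 0.1 (r = 0.01), the block stayed an alternative. With a fold change above 1.5, 2 members were higher with shSIRT3-1, 12 higher and 1 lower with shSIRT3-2, 1 higher and 0 lower with both, 8 differed between the hairpins, 3 were higher and 0 lower with both in Karpas422, 5 were higher with both in HBL1, and 20 differed between HBL1 and Karpas422 controls. Leaving out a replicate number or 1 library gave 7 to 15 higher and 0 to 1 lower with both, 11 to 17 higher and 3 to 5 lower with shSIRT3-1, 20 to 29 higher and 1 to 4 lower with shSIRT3-2, 11 to 24 that differed between hairpins, and 2 to 27 that differed between lines. The lowest interaction counts, 2 and 9, came without replicate 1 and 2 of every group, which leaves 18 libraries. In Karpas422 the range was 1 to 12 higher and 0 to 3 lower, in HBL1 0 to 21 and 0 to 3, and in OCI-Ly1 0 to 8 higher. TFEB with shSIRT3-2 did not pass without a filter (adjusted p = 0.0518) or with the block (0.0526), and TFE3 with shSIRT3-1 passed with a pseudocount of 1 (0.0498). Quantile normalization lowered the share of falls among all calls from 58.9% to 44.6% with shSIRT3-1 and from 57.1% to 45.6% with shSIRT3-2. MCOLN1 with shSIRT3-2 passed with quantile normalization (0.0364). Leaving out 1 of the 3 replicate numbers, which removes 9 libraries, ended the shSIRT3-1 calls of LAMP2, HEXA, GLA, TPP1, NPC2, ATP6V1A and ATP6V1F, and the shSIRT3-2 calls of TFEB, SCARB2, TPP1, CTSC, HEXA, GLA, GAA, ASAH1, PPT1, ATP6V0A1, ATP6V1F and ATP6V1H (adjusted p from 0.0514 to 0.512), while GUSB with shSIRT3-1 (0.0264) and CTSS with shSIRT3-2 (0.0399) came to pass. MITF, at most 0.0954 CPM, was too low to test. The cause of these shifts was not tested.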
